A study of Homo sapiens with 12 samples.

Results

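The change that a CDK8/19 inhibitor made in cells expressing a kidney cancer fusion gene was read from 6 of the 12 libraries of the series, 3 from cells given doxycycline (Dox) alone and 3 from cells given Dox with the inhibitor MSC2530818. The libraries were chosen by their labels, and every gene that reached 1 FPKM in at least 3 of the 12 libraries was tested, which kept 12649 of 26334 gene symbols. HK-2 is an established human line of proximal tubule epithelial cells. All 4 groups were the same HK-2 derivative carrying a Dox-inducible PRCC-TFE3 cassette, grown in medium with 1.5% serum low in tetracyclines and with puromycin (0.8 µg/mL) and blasticidin S (2 µg/mL). The group called Dox received the inducer, and the group called Dox plus inhibitor received the inducer and 100 nM MSC2530818, both for 48 h. The remaining groups, used for reference, received neither agent (DMSO, called vehicle) or the inhibitor without Dox. The promoter that drives the cassette, the dose of Dox and whether the line is a single clone could not be learned from the labels. No group gave Dox to HK-2 cells that lack the cassette, so effects of Dox itself and of the fusion protein cannot be told apart.

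CDK8 and its paralogue CDK19 are kinases that, with cyclin C, MED12 and MED13, form the kinase module of Mediator, the complex that links DNA-bound transcription factors to RNA polymerase II. The module can dampen or sustain transcription depending on the gene, and its best known client programs include interferon, Wnt, serum response, NF-kB and TGF-beta responses. TFE3 belongs to the MiT family with MITF, TFEB and TFEC, factors that bind E-box and M-box sequences and drive lysosome, autophagy and nutrient-sensing genes. In translocation renal cell carcinoma, joining TFE3 to a partner such as PRCC gives a chimeric factor that stays in the nucleus, and GPNMB and TRIM63 are used as markers of such tumors.

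The sum of FPKM ran from 429208 to 473950 per library, and the values were rounded to 2 decimals, so the depth is unknown. Of the proximal tubule markers, GGT1 (36.3 to 51.2 FPKM over the 12 libraries) and PAX8 (81.6 to 135) were expressed, whereas LRP2, CUBN, AQP1, SLC34A1, SLC22A6, ANPEP and HNF4A stayed below 0.45 FPKM in every library. The epithelial genes EPCAM (44.9 to 54.2) and KRT8 (216 to 399) were present and CDH1, which encodes E-cadherin, was at 0.01 FPKM or less. Defining markers of the other nephron segments, podocytes, endothelium and leukocytes were at or near 0, among them UMOD, WT1 and PECAM1, though 5 genes of those lists passed the filter: the podocyte genes PODXL (4.67 to 9.57) and SYNPO (group means of 12.7 to 17.1), the lysosomal gene CD68, and at low levels AVPR2 (group means up to 3.91) and ESAM (up to 2.64). SYNPO was called higher with the inhibitor (0.22, limma adjusted p = 0.032), a call lost when any 1 of 5 Dox or Dox plus inhibitor libraries was left out. In bulk RNA, fewer cells of one kind and less RNA per cell cannot be told apart. Replicate 1 of the vehicle, inhibitor and Dox plus inhibitor groups lay apart from its group along the second principal component, which held 19.2% of the variance. Many counts, though not all, are therefore also given as the number that held under every alternative setting in which the gene was tested. There were 21 such settings (20 for the interaction), which include leaving out each library. Low genes did not face them all, since a stricter filter tested 8798 genes and removal of a length and GC trend 11996.

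The inhibitor altered 4063 of 12649 tested genes (32.1%) in fusion-induced cells, mostly by small amounts. By limma at an adjusted p under 0.05, 1434 genes (11.3%) rose and 2629 (20.8%) fell, and 978 and 1380 of them held under every setting. A change of at least 2-fold on the log2(FPKM + 1) scale was seen in 123 of the genes that rose and 79 of those that fell. The excess of falls depended on the scaling: 35.3% of the called genes were higher on the deposited scale, 54.1% when median-ratio scaling was applied (1948 of 3601) and 50.3% after quantile normalization (1896 of 3770). The median gene shifted by -0.08 (log2) as deposited and by less than 0.02 in size after these scalings, and all changes below are on the deposited scale and are to be read against that median. Where 2 mean FPKM values (n = 3 each) are followed by a number in brackets, that number is the log2 change, and each change written as a rise or a fall passed limma's test. The 3 Dox plus inhibitor values lay entirely to one side of the 3 Dox values for 52.0% of all tested genes. Counts of list members below are to be read beside the 11.3% of all tested genes that rose and the 20.8% that fell. Where the number held under every setting is not printed, fewer members may have held. Examples are glycolysis (9 lower, 5 held) and Wnt/beta-catenin targets (7 higher, 4 held).

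For the transcripts of the targeted kinases no change was called. None of the 7 tested genes of the Mediator kinase module was called. CDK8 read 12.7, 10.96 and 11.9 FPKM with Dox and 12.3, 12.6 and 11.7 with Dox plus inhibitor, a difference of 0.04 ± 0.08 (log2, SE; limma adjusted p = 0.75). CDK19 differed by 0.17 ± 0.09 (log2, SE; limma adjusted p = 0.17) and CCNC, which encodes cyclin C, by -0.20 ± 0.14 (log2, SE; limma adjusted p = 0.29). The differences for MED12 and MED13 were -0.05 ± 0.07 and -0.18 ± 0.21, with limma adjusted p = 0.61 and 0.56. Transcript levels do not report kinase activity.

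TFE3 transcript, whose reads from the resident gene and from the cassette cannot be separated here, was lower with the inhibitor. TFE3 (chromosome X, 49028726 to 49043486, minus strand in GENCODE 29 on GRCh38) read 149, 154 and 146 FPKM with Dox and 87.6, 83.2 and 81.7 with Dox plus inhibitor. All 3 treated values were below all 3 values with Dox alone and above the vehicle values of 38.9, 35.8 and 32.7. The change was -0.82 ± 0.07 (log2, SE; limma adjusted p = 5e-06). PRCC, the fusion partner and a splicing-associated protein, fell from 41.7 to 28.6 FPKM (-0.53), with vehicle at 28.5. Its resident and cassette reads cannot be separated either. Without Dox PRCC changed by -0.31, and its interaction was not called (limma adjusted p = 0.57). The fall of TFE3 was also present without Dox at -0.35, and was larger with Dox by -0.47 ± 0.10 (limma interaction adjusted p = 0.023), a difference that lost its call when 1 of 7 libraries was left out (Dox 1, 2 or 3, vehicle 2, inhibitor 2, Dox plus inhibitor 2 or 3), with values of -0.49 to -0.45 and adjusted p of 0.053 to 0.076 in limma. Of the relatives of TFE3, TFEB fell by 0.59 on the log2 scale from a low level (1.56 to 0.703 FPKM), and changed by -0.63 without Dox. MITF, at 13.8 and 15.3 FPKM, differed by 0.13 ± 0.10 (log2, SE), with limma adjusted p = 0.36. The lower TFE3 and PRCC levels accompany every fall described next, and their part in those falls was not tested.

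The upstream sequences of 3 of the genes with the largest falls among the lysosomal and tumor marker lists are shown because they are the promoters at which MiT factors would be looked for. Each is the 150 bases before the transcription start, 5′ to 3′ on the gene's strand, from RefSeq (GRCh38.p14), with matches to an M-box (TCATGTG) or an AP-1 site (TGANTCA) on either strand in capitals.
GPNMB (chr7:23246625-23246774, plus strand): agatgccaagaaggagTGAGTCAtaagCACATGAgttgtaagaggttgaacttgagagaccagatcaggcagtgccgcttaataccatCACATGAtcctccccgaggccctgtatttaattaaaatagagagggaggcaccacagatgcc
TRIM63 (chr1:26067631-26067780, minus strand): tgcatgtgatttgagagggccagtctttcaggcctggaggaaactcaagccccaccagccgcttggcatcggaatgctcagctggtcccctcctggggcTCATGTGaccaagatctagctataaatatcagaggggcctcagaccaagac
NMRK2 (chr19:3933439-3933588, plus strand): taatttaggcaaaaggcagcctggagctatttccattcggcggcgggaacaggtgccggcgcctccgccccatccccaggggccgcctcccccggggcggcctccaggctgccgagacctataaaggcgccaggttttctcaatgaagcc

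GPNMB held an AP-1 match whose first base is 134 bases before the start and M-box matches at 123 and 62 bases before it. TRIM63 held an M-box match at 51 bases before its start. NMRK2 held no match to these motifs in its window, and none to the E-box CACGTG, which says only that these letters are absent there.

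GPNMB, a transmembrane glycoprotein of melanosomes and lysosomes and a clinical marker of these tumors, read 55.02, 60.7 and 60.2 FPKM with Dox and 12.3, 14.4 and 13.6 with Dox plus inhibitor. The treated values lay below all Dox values and above the vehicle values of 7.36, 6.43 and 7.27. The change was -2.05 ± 0.08 (log2, SE; limma adjusted p = 2e-08). NMRK2, a nicotinamide riboside kinase of the NAD salvage pathway that is otherwise typical of muscle, showed the largest fall among genes expressed at 5 FPKM or more. It read 12.5, 16.6 and 16.6 with Dox and 0.29, 1.07 and 0.46 with the inhibitor added, a change of -3.36 ± 0.16 (log2, SE; limma adjusted p = 1e-07). Vehicle libraries were at 0.11, 0.08 and 0.17. TRIM63, a muscle ubiquitin ligase used as a marker by RNA in situ hybridization, went from 2.59, 3 and 2.96 FPKM to 0.07, 0.06 and 0.04, and was at 0.04, 0.03 and 0.07 in vehicle. Its change was -1.86 ± 0.08 (log2, SE; limma adjusted p = 4.2e-08). For NMRK2 the treated values also stayed above the vehicle values, whereas for TRIM63 those groups overlapped. NMRK2 and TRIM63 met the filter of 1 FPKM in at least 3 libraries only because of the Dox libraries. Being tested thus required high Dox values, which favored a fall in advance.

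Genes of carbohydrate and nutrient handling were also among the 15 largest falls. RRAGD, a Rag GTPase that recruits mTORC1 to lysosomes, read 7.84, 8.84 and 9.45 FPKM with Dox and 1.62, 1.46 and 1.46 with Dox plus inhibitor, and changed by -1.95 ± 0.08 (log2, SE; limma adjusted p = 3.5e-08). UAP1L1, a relative of the enzyme that makes UDP-N-acetylglucosamine, read 17.5, 18.99 and 18.5 with Dox and 4.51, 3.71 and 4.07 with Dox plus inhibitor, a change of -1.92 ± 0.08 (log2, SE; limma adjusted p = 3.5e-08). RENBP, the N-acetylglucosamine epimerase, fell from 17.8 to 3.80 FPKM (-1.98). UPP1, which releases ribose 1-phosphate from uridine, fell from 212 to 73.3 FPKM (-1.52), and its treated level was below the 113 FPKM of vehicle cells. The secreted products SPINK1, a trypsin inhibitor, and ANGPTL2, an angiopoietin-like glycoprotein, fell from 7.15 to 0.790 FPKM (-2.20) and from 7.30 to 1.92 FPKM (-1.50). PTGDS, the lipocalin-type prostaglandin D synthase, fell from 21.9 to 4.35 FPKM (-2.10). ANKRD1, a target of YAP, went from 161 to 47.5 FPKM (-1.74) and ended below its vehicle level of 73.1. ID2, which blocks basic helix-loop-helix factors, fell from 10.5 to 2.31 FPKM (-1.79) against 4.90 in vehicle. BEX2 and ZNF114 fell by 1.61 and 1.50 on the log2 scale. All of these genes were called under every setting, and in each the 3 treated values lay below the 3 Dox values, which the rule for naming them required. SPINK1 met the filter only because of the Dox libraries, which favored a fall in advance.

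**Figure D1:**
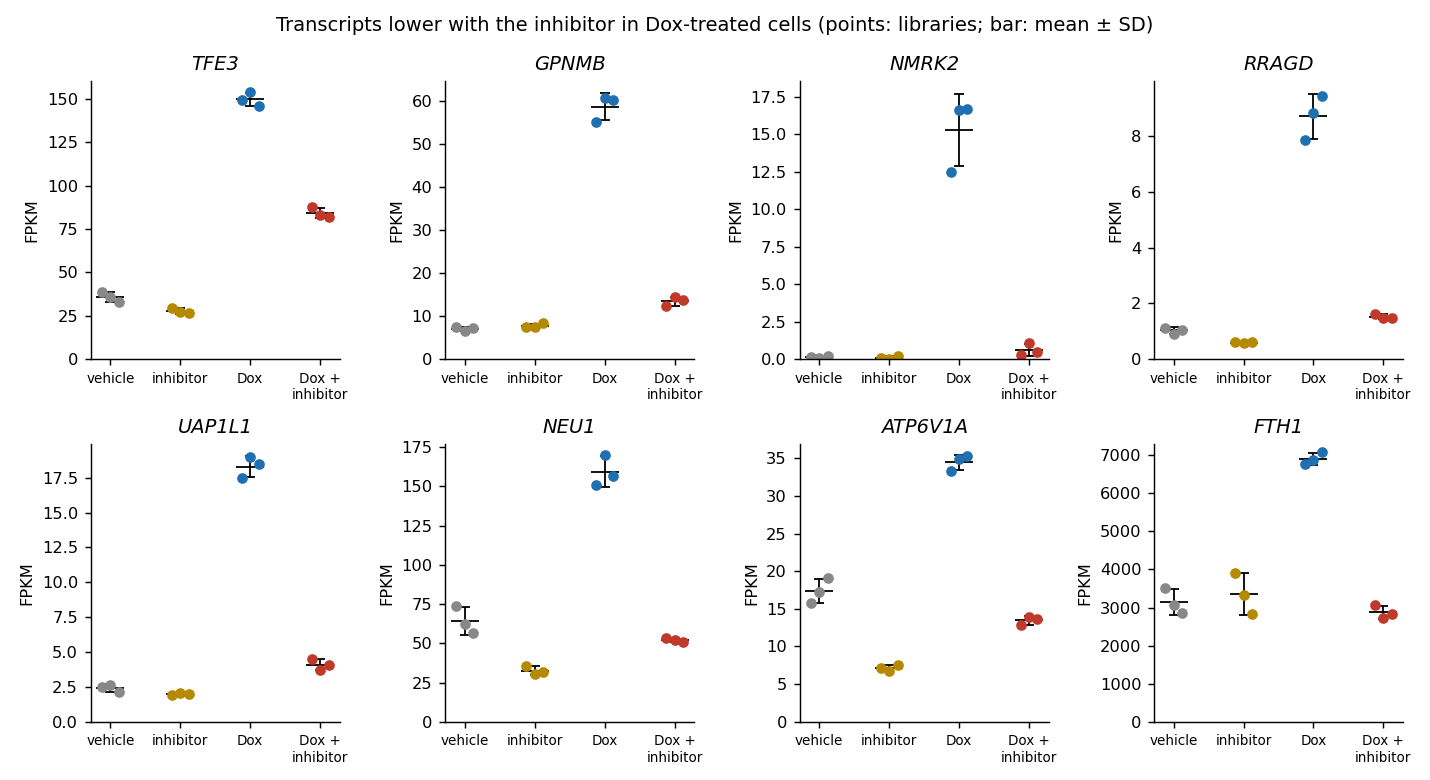
FPKM of 8 transcripts that fell with the inhibitor in Dox-treated cells, in vehicle, inhibitor, Dox, and Dox plus inhibitor libraries; points are libraries and bars the mean ± SD (n = 3). GPNMB falls from a mean of 58.6 to 13.4 FPKM, above the vehicle mean of 7.02, while TFE3 at 84.2 FPKM stays above its vehicle mean of 35.8 and ATP6V1A at 13.5 FPKM ends below its own of 17.4.

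Of the list of markers and known targets of TFE3-rearranged kidney tumors, 18 of 21 tested members fell and 1 (BHLHE41, a call not held under every setting) rose, against backgrounds of 20.8% and 11.3% of all tested genes, and 17 of the falls held under every setting. The median change of the list was -0.99, beside -0.08 for all genes. Dox alone, a comparison that uses the same Dox libraries, had raised 19 of the 21 (median 1.02), where 10.6% of all tested genes were higher and 7.31% lower. Besides the genes above, FLCN, the folliculin tumor suppressor, fell from 23.6 to 13.6 FPKM (-0.75), and its partner FNIP2 fell from 18.7 to 9.58 FPKM (-0.90). RRAGC, another Rag GTPase, read 43.1, 43.4 and 44.9 FPKM with Dox and 20.1, 22.4 and 22.2 with the inhibitor added. Its change was -0.99 ± 0.05 (log2, SE), with limma adjusted p = 1.9e-07. SQSTM1, the selective autophagy receptor p62, fell from 290.5 to 158 FPKM (-0.87), with vehicle at 156. The list was compiled from genes known to respond to TFE3, and its direction is no independent evidence.

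Transcripts of the lysosomal acid pump, enzymes and membrane proteins were among those that fell. Of the tested V-ATPase genes, which encode the pump that acidifies lysosomes, 17 of 19 fell, 15 of them under every setting, 1 (ATP6V0A2) rose, and the median change was -0.46. ATP6V1A, the catalytic subunit, read 33.3, 34.9 and 35.2 FPKM with Dox and 12.9, 13.9 and 13.6 with Dox plus inhibitor. These treated values were also under the vehicle values of 15.8, 17.2 and 19.1. Its change was -1.29 ± 0.07 (log2, SE; limma adjusted p = 1.9e-07), and without Dox the inhibitor changed it by -1.17. ATP6V1H, a regulatory subunit, fell from 40.8 to 22.6 FPKM (-0.83), and ATP6V0D1, of the central stalk, fell from 91.4 to 56.2 FPKM (-0.69).

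Of the lysosomal hydrolases, 22 of 51 fell (20 under every setting) and 1 (ARSA) rose, with a median of -0.16. NEU1, the lysosomal sialidase, read 151, 170.2 and 157 FPKM with Dox and 53.3, 52.4 and 51.04 with Dox plus inhibitor, below the vehicle values of 73.97, 62.4 and 56.5, and changed by -1.59 ± 0.09 (log2, SE; limma adjusted p = 3.7e-07). SMPD1, acid sphingomyelinase, fell from 6.64 to 2.04 FPKM (-1.33). ACP5, the tartrate-resistant acid phosphatase, fell from 28.4 to 13.8 FPKM (-0.99). The membrane and trafficking list moved likewise, with 27 of 49 lower (21 under every setting), 1 higher and a median of -0.30. MCOLN1, the lysosomal calcium channel TRPML1, fell from 12.6 to 5.44 FPKM (-1.08). CD68 and OSTM1, both lysosomal membrane proteins, fell from 56.04 to 31.03 FPKM (-0.83) and from 20.2 to 11.9 FPKM (-0.74). The single member that rose was TPCN1, an endolysosomal cation channel, from 10.7 to 24.1 FPKM (1.10). Without Dox the inhibitor lowered 9 of 19 V-ATPase, 16 of 51 hydrolase and 16 of 49 membrane genes, beside 26.3% of all tested genes. It raised 3, 12 and 5 of them, beside 11.7%. Dox alone, a comparison that uses the same Dox libraries, had raised 14, 32 and 30 of these genes, beside 10.6% of all tested genes.

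Of the autophagy list, 18 of 42 fell and 1 (WIPI1) rose, and 12 of the falls held under every setting (median -0.21). ATG4A, a protease that processes LC3-family proteins, fell from 10.6 to 5.06 FPKM (-0.94), ATG4D of the same family fell from 9.87 to 5.77 FPKM (-0.69), and PLEKHM1, an adaptor for fusion of autophagosomes with lysosomes, fell from 16 to 9.63 FPKM (-0.68). For amino acid sensing to mTORC1, 16 of 35 genes fell, 9 of them under every setting, and none rose (median -0.22). Iron storage stood out by its abundance. FTH1, the ferritin heavy chain, read 6766, 6861 and 7083 FPKM with Dox and 3062, 2735 and 2833 with Dox plus inhibitor. The treated values were close to the vehicle values of 3509, 3064 and 2864, and the change was -1.26 ± 0.11 (log2, SE; limma adjusted p = 7.7e-06). FTL, the light chain, read 6267, 6709 and 6633 with Dox and 2534, 2206 and 2154 with the inhibitor added, below vehicle at 3948, 3528 and 3246, with a change of -1.51 ± 0.10 (log2, SE; limma adjusted p = 7.4e-07). After quantile normalization the changes of FTH1 and FTL were -0.70 and -0.805, still called. Ferritin genes have processed pseudogenes, so reads may be shared between copies. HMOX1, which frees iron from heme, fell from 57.6 to 32.04 FPKM (-0.83). The metalloreductase STEAP3, which reduces iron released from transferrin, rose from 9.67 to 16.3 FPKM (0.70). Over the iron list, 7 of 12 fell and 2 rose, with 4 falls after median-ratio scaling. Among pigment cell genes, known from MITF biology, 6 of 9 fell and none rose, most at low levels, as for RAB38, a GTPase of melanosome biogenesis (from 5.41 to 3.30 FPKM, -0.57), and MLPH, which tethers melanosomes to myosin (from 1.32 to 0.493 FPKM, -0.64).

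The 15 largest rises comprised genes of secreted proteins (CCL20, PDGFB, EDN1, TNF and IGFBP3), genes of smooth muscle type contractile proteins (ACTA2, TAGLN and MYL9) and 7 genes of other kinds. CCL20, the chemokine ligand of CCR6 (chromosome 2, 227805739 to 227817564, plus strand), read 0.43, 0.55 and 0.18 FPKM with Dox and 15.97, 21.5 and 17.8 with Dox plus inhibitor. All treated values exceeded the vehicle values of 1.86, 2.39 and 1.45, and the change was 3.81 ± 0.15 (log2, SE; limma adjusted p = 3.1e-08). Without Dox the inhibitor brought CCL20 to 49.2, 62.5 and 62.95 FPKM. PDGFB, the B chain of platelet-derived growth factor, read 2.38, 2.26 and 2.57 with Dox and 27.97, 31.9 and 28.1 with Dox plus inhibitor, a change of 3.15 ± 0.08 (log2, SE; limma adjusted p = 4e-09). EDN1, the vasoconstrictor endothelin-1, read 2.50, 2.43 and 2.21 with Dox and 21.8, 25.7 and 21.3 with the inhibitor added, and changed by 2.82 ± 0.08 (log2, SE; limma adjusted p = 4e-09). The groups did not overlap for either gene, and the Dox values of both lay below vehicle (6.06 and 6.34 FPKM). TNF, the inflammatory cytokine, read 2.33, 3.33 and 2.88 FPKM with Dox and 13.9, 17.2 and 15.7 with Dox plus inhibitor, a change of 2.11 ± 0.10 (log2, SE; limma adjusted p = 8.9e-08).

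The smooth muscle type genes ACTA2, TAGLN and MYL9 rose together. ACTA2, alpha smooth muscle actin, was almost absent with Dox (0.29, 0.14 and 0.40 FPKM) and reached 8.40, 7.41 and 7.72 with the inhibitor. Its change was 2.80 ± 0.10 (log2, SE), with limma adjusted p = 1.9e-08. It met the filter only because of libraries with the inhibitor. TAGLN, the actin-binding protein transgelin, read 80.3, 90.6 and 84.8 with Dox and 431, 401 and 389 with the inhibitor added, and changed by 2.24 ± 0.10 (log2, SE; limma adjusted p = 6.4e-08). MYL9, a regulatory myosin light chain, read 283, 283 and 266 with Dox and 1368, 1249 and 1198 with the inhibitor added, with a change of 2.19 ± 0.10 (log2, SE; limma adjusted p = 5.3e-08). IGFBP3, which binds insulin-like growth factors, rose from 32.9 to 144 FPKM (2.10). EPPK1, a cytoskeletal linker of epithelia, rose from 2.26 to 15.8 FPKM (2.37), ALDH1B1, a mitochondrial aldehyde dehydrogenase, rose from 19.6 to 85.3 FPKM (2.07), and AKAP12, a scaffold for protein kinase A, rose from 30.4 to 102 FPKM (1.71). KCNK3, a background potassium channel, rose from 3.24 to 13.2 FPKM (1.74). The list of the 15 largest rises was completed by C8orf4 (2.38), SPOCD1 (2.21) and IFFO2 (1.94).

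**Figure D2:**
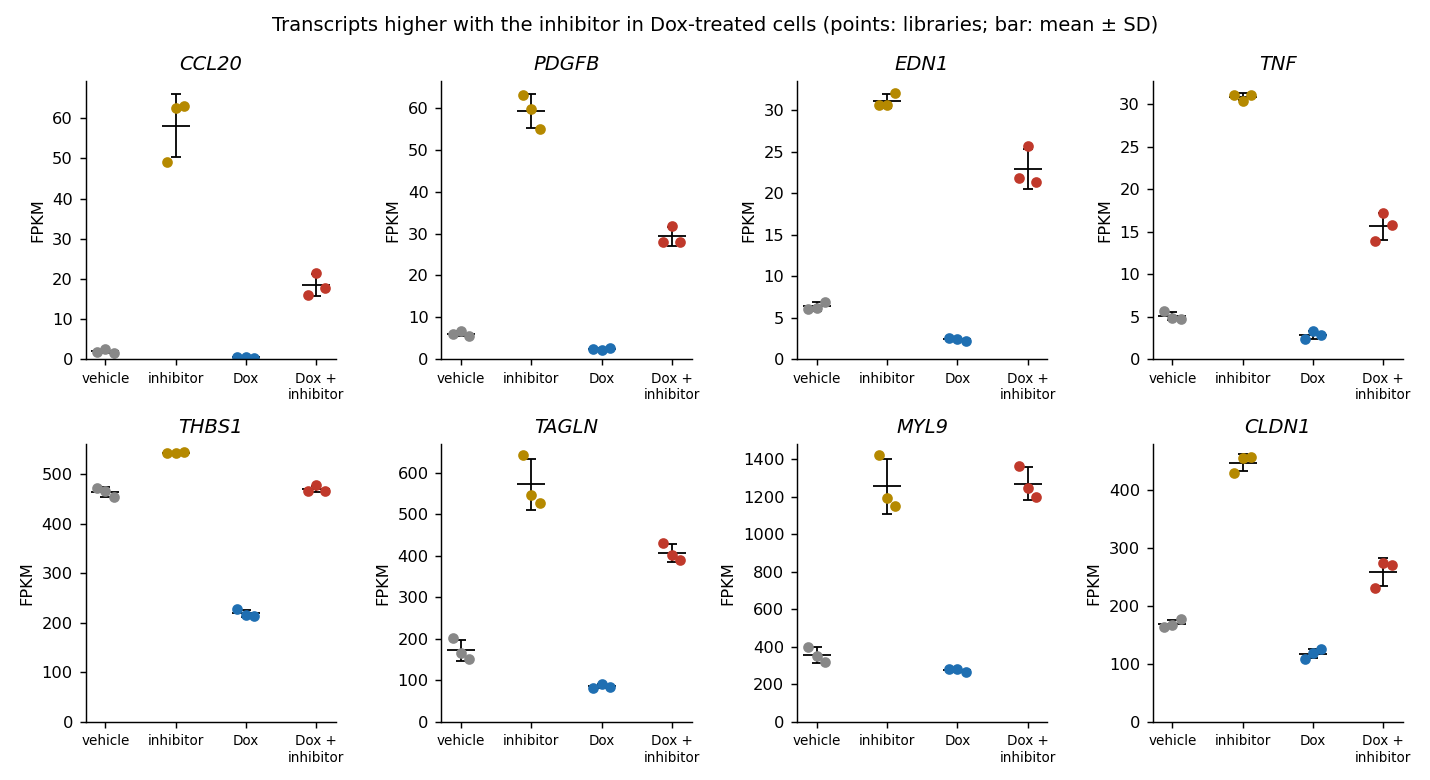
FPKM of 8 transcripts that rose with the inhibitor in Dox-treated cells, in vehicle, inhibitor, Dox, and Dox plus inhibitor libraries; points are libraries and bars the mean ± SD (n = 3). CCL20 rises from a mean of 0.387 to 18.4 FPKM with Dox and stands at 58.2 with the inhibitor alone, whereas MYL9 reaches means of 1271 and 1257 FPKM.

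Among inflammatory cytokines and chemokines, 13 of 22 tested members rose, 11 of them under every setting, and 1 (C3) fell. Their median was 0.39, and without Dox the inhibitor raised 16 of the 22 and lowered 2 (median 0.56). Dox alone, a comparison that uses the same Dox libraries, had lowered 12 of the 22 and raised 3 (median -0.45). CXCL8, the neutrophil chemokine, read 55.4, 57.97 and 59 FPKM with Dox and 112, 133 and 133 with Dox plus inhibitor. The treated values remained under the vehicle values of 189, 197 and 221, and the change was 1.12 ± 0.08 (log2, SE; limma adjusted p = 2.2e-06). IL6, CSF2 (a myeloid growth factor) and TNFSF10 (the death ligand TRAIL) rose from 20.2 to 32.8 FPKM (0.68), from 1.86 to 6.11 FPKM (1.33) and from 2.87 to 8.79 FPKM (1.33). NF-kB pathway genes gave 6 of 20 higher and 1 lower. NFKBIA, the inhibitor IkB-alpha, rose from 28.9 to 57.2 FPKM (0.96), with RELB, a subunit, at 0.71 and TRAF1, a receptor adaptor, at 1.08. CYLD, a deubiquitinase that restrains the pathway, fell from 12.6 to 7.67 FPKM (-0.65).

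Of the 37 tested interferon genes 6 rose and 8 fell, beside backgrounds of 11.3% and 20.8% of all genes, so the counts say nothing particular to the list. GBP1, an interferon-induced GTPase, and DDX58, the RNA sensor RIG-I, rose from 5.47 to 20.0 FPKM (1.70) and from 3.03 to 8.39 FPKM (1.22). SOCS3, a feedback inhibitor of cytokine signaling, and PARP9 fell from 16.1 to 8.58 FPKM (-0.84) and from 14.7 to 8.64 FPKM (-0.71). In class I antigen presentation 7 of 19 rose and 2 (B2M and NLRC5) fell, that of B2M not under every setting. TAP1, the peptide transporter, rose from 8.55 to 17.1 FPKM (0.93), and HLA-B, HLA-F and the trimming enzyme ERAP1 rose by 0.46, 0.50 and 0.38. HLA genes share sequence, so their reads may be split between loci. The immediate early list gave 12 higher and 11 of 35 lower as deposited, 14 higher and 7 lower after median-ratio scaling and 14 and 5 after quantile normalization. Of these, 10 rises and 5 falls held under every setting. EGR1, the prototype serum response gene, fell from 6.31 to 1.65 FPKM (-1.46), while SRF, the factor that binds serum response elements, rose from 16.4 to 37.7 FPKM (1.15). PHLDA1, a growth factor response gene, fell from 6.64 to 3.32 FPKM (-0.82). Complement genes fell in 6 of 10, all 6 under every setting, and none rose. C1R, C3 and CFB changed by -0.94, -0.73 and -0.89, and CD55, which protects host cells from complement, fell from 22.6 to 14.1 FPKM (-0.65). LUM, the matrix proteoglycan lumican and a fibroblast marker, fell from 7.48 to 2.88 FPKM (-1.15), while RGS5, a pericyte marker, rose. These were the only calls among the 3 tested fibroblast and pericyte markers, and their part in the matrix genes described next was not tested. The fibroblast markers PDGFRA, PDGFRB and DCN stayed at 0.05 FPKM or less in every library, while COL1A1 had group means of 3.48 to 4.33.

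TGF-beta ligands, activators and targets were mostly higher: 18 of 30 rose (16 under every setting) and 4 fell, with a median of 0.53. Without Dox the inhibitor raised 19 of the 30 and lowered 5 (median 0.41). Dox alone, a comparison that uses the same Dox libraries, had lowered 19 of the 30 and raised 1 (median -0.34). Of the ligands, TGFB2 rose from 26.6 to 63.9 FPKM (1.23). Of the targets, CTGF, a matricellular protein, read 90.97, 82.9 and 88.6 FPKM with Dox and 241, 244 and 244 with Dox plus inhibitor. Treated values exceeded both the Dox and the vehicle values (173, 159 and 157), and the change was 1.46 ± 0.07 (log2, SE; limma adjusted p = 1.2e-07). ID2, described above, went the other way.

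The list of mesenchymal and extracellular matrix genes, which includes ACTA2 and TAGLN from above, rose in 12 of 26 and fell in 4. TNC, tenascin-C, rose from 1.66 to 7.30 FPKM (1.64), and FBN1, fibrillin-1, rose from 29.9 to 63.6 FPKM (1.06). Integrin and laminin genes rose in 12 of 22 and fell in 3 (median 0.38). LAMB3, a laminin beta chain of epithelial basement membranes, read 6.52, 7.56 and 6.84 with Dox and 15.3, 17.2 and 14.9 with the inhibitor added, against 11.6, 10.2 and 9.51 in vehicle, and changed by 1.08 ± 0.08 (log2, SE; limma adjusted p = 3.9e-06). ITGAV and ITGB6, which pair into an integrin that activates TGF-beta, rose from 108 to 209 FPKM (0.94) and from 6.32 to 13.4 FPKM (0.96).

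Epithelial junction and keratin genes rose in 12 of 26 and fell in 6, beside 11.3% and 20.8% of all genes. CLDN1, a tight junction claudin, read 109, 119 and 125 FPKM with Dox and 231, 274 and 270.5 with Dox plus inhibitor, and changed by 1.13 ± 0.07 (log2, SE; limma adjusted p = 9.3e-07). CLDN2, a claudin forming cation pores in the proximal tubule, rose from 0.797 to 4.04 FPKM (1.48), CLDN16, known from the thick ascending limb, rose from 3.77 to 9.17 FPKM (1.09), and DSC3, a desmosomal cadherin, rose from 15.5 to 34.3 FPKM (1.10). The list of genes known from injured proximal tubule gave 14 of 19 higher, 10 of them under every setting, and none lower (median 0.40). KRT7 rose from 4.42 to 9.91 FPKM (1.01). The differentiated tubule list was divided, with 6 higher and 4 of 15 lower. PDZK1, a scaffold for brush border transporters, read 42.5, 42.4 and 42.5 with Dox and 17.1, 17.2 and 16.1 with Dox plus inhibitor, and changed by -1.29 ± 0.05 (log2, SE; limma adjusted p = 2.8e-08). DAB2, an endocytic adaptor of the megalin receptor, fell from 15.5 to 9.61 FPKM (-0.64). SLC3A1, part of the cystine transporter, and GATM, of creatine synthesis, rose from 2.07 to 4.35 FPKM (0.78) and from 2.29 to 4.07 FPKM (0.62).

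In the plasminogen activator system 5 of 9 rose, all 5 under every setting, and none fell. PLAU, urokinase, rose from 89.3 to 165 FPKM (0.88), its receptor PLAUR rose from 18.3 to 26.7 FPKM (0.51), and PLAT, tissue plasminogen activator, read 6.31, 6.05 and 5.23 with Dox and 11.3, 10.6 and 10.98 with Dox plus inhibitor. PLAT stayed under its vehicle values of 13.1, 11.8 and 11.4, and its change was 0.80 ± 0.07 (log2, SE; limma adjusted p = 1.2e-05). Growth factors and receptors rose in 12 of 29 and fell in 6, beside 11.3% and 20.8% of all genes, so the falls were near that share. IGFBP7 reached 236 FPKM from 79.7 (1.56). Among Wnt/beta-catenin targets 7 of 16 rose and 3 fell. MYC and CCND1 rose from 70.97 to 120.4 FPKM (0.75) and from 31.2 to 46.4 FPKM (0.56), while DKK1, a secreted Wnt antagonist, fell from 159 to 92.8 FPKM (-0.77). In the Notch pathway the ligand JAG1 and the targets HES1 and NRARP rose by 1.38, 0.96 and 0.49, and LFNG, which glycosylates Notch, changed by -0.45. Over that list 4 of 13 rose and 2 fell. The list of Hippo pathway genes and YAP/TEAD targets was divided, with 10 higher and 7 of 29 lower.

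**Figure D3:**
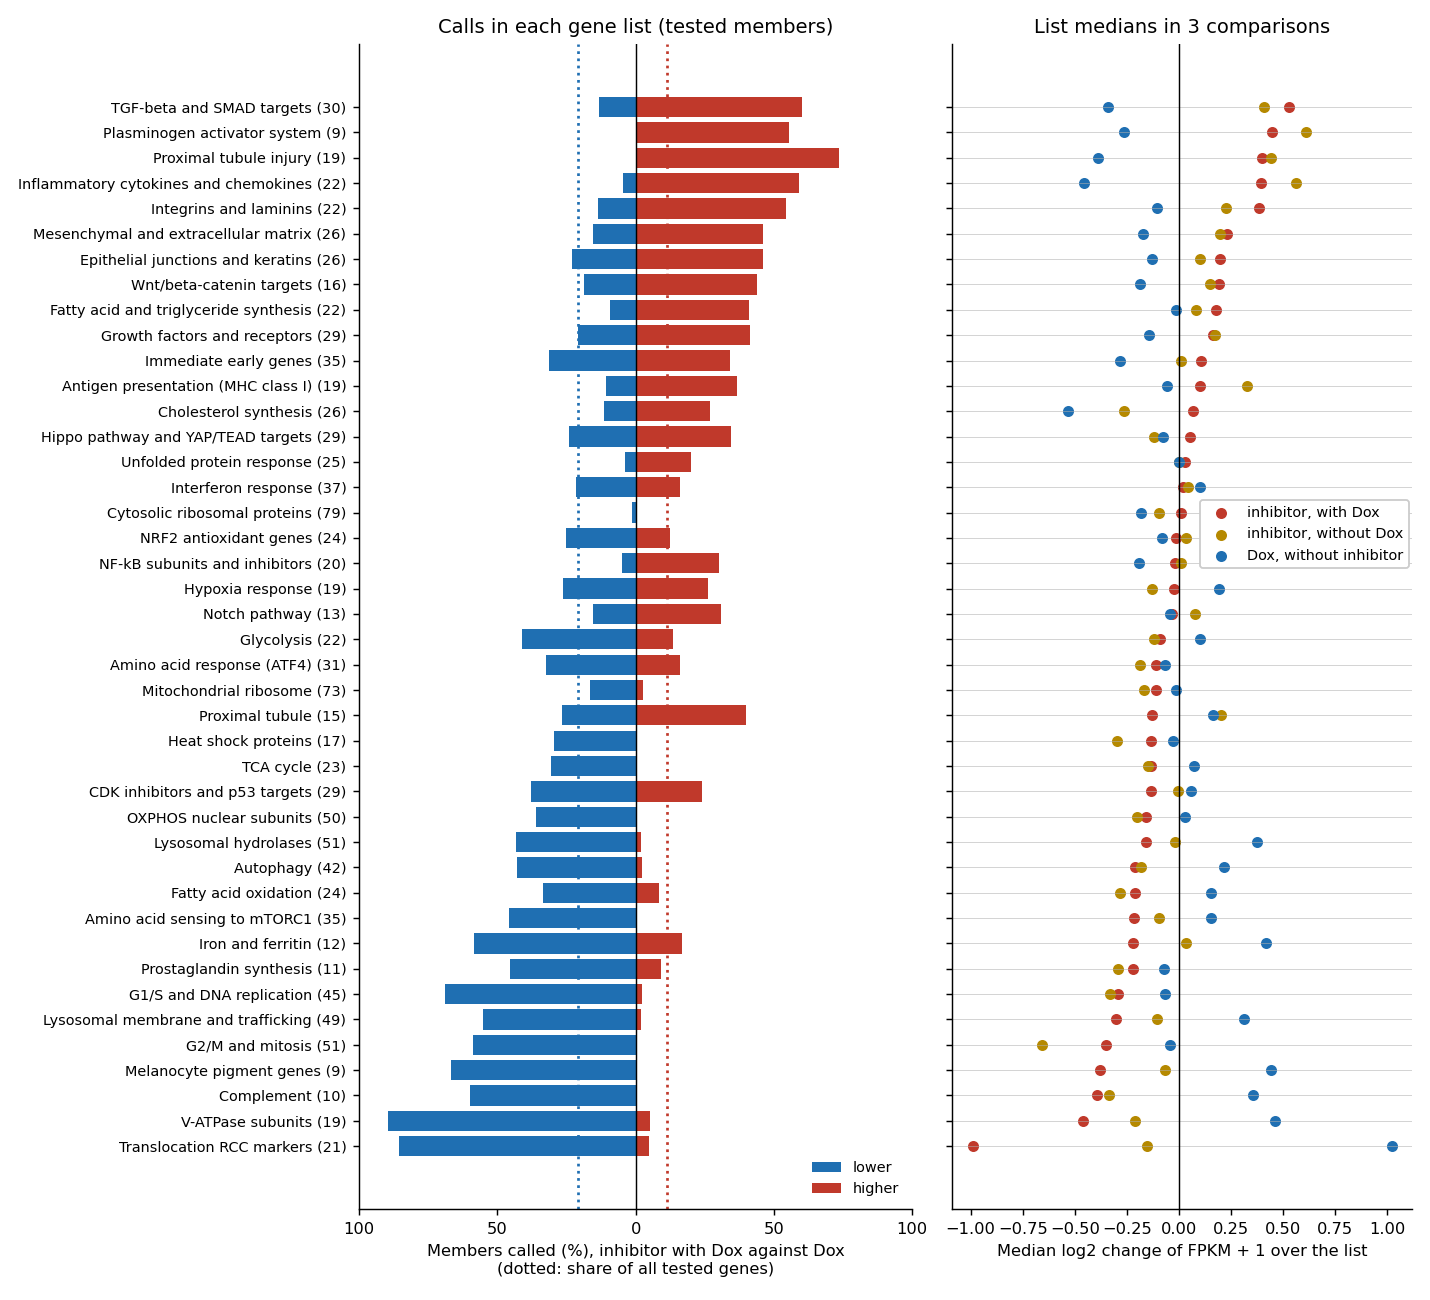
Left, percent of tested members of each gene list called lower or higher in the Dox plus inhibitor group against Dox, with the number of tested members in brackets and dotted lines at 20.8% lower and 11.3% higher for all tested genes. Right, median log2 change of FPKM + 1 over each list in 3 comparisons, of which inhibitor with Dox and Dox without inhibitor share the Dox libraries; tumor markers have medians of -0.99 and 1.02 in these, and TGF-beta genes 0.53 and -0.34.

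Cell cycle genes mostly fell or were not called. Of the G1/S and DNA replication genes 31 of 45 fell and 1, CCND1, rose (median -0.29), and 20 of the falls held under every setting. RRM2, the small subunit of ribonucleotide reductase, read 82.8, 80.3 and 74.5 FPKM with Dox and 42.3, 35.8 and 38.5 with Dox plus inhibitor, a change of -1.01 ± 0.07 (log2, SE; limma adjusted p = 1.3e-06). RRM1, the large subunit, fell from 56.3 to 33.2 FPKM (-0.74), E2F2 fell from 2.01 to 0.977 FPKM (-0.61), and GINS2, of the replicative helicase, fell from 59.4 to 39.8 FPKM (-0.57). Of the G2/M and mitosis genes 30 of 51 fell, 18 of them under every setting, and none rose (median -0.35). KIF20A, a mitotic kinesin, fell from 41.3 to 21.7 FPKM (-0.90), SPC24, of the kinetochore, fell from 12.6 to 6.74 FPKM (-0.82), and CDCA8, of the chromosomal passenger complex, fell from 56.97 to 37.7 FPKM (-0.58). After median-ratio scaling 21 and 21 members of these lists were lower. Without Dox the inhibitor lowered 35 of the 45 and 39 of the 51 (medians -0.33 and -0.66), beside 26.3% of all tested genes. It raised 2 and 0 there. Dox alone had 4 members higher and 5 lower in the first list, and 0 higher and 4 lower in the second. Of all tested genes, 10.6% were higher and 7.31% lower with Dox alone. CDKN1A, the CDK inhibitor p21, read 36.7, 48.02 and 41.8 FPKM with Dox and 26.9, 27.4 and 27.2 with Dox plus inhibitor, against 24.5, 21.6 and 19.4 in vehicle, and changed by -0.61 ± 0.10 (log2, SE; limma adjusted p = 8.2e-04). CDKN2C and CDKN2D, inhibitors of CDK4 and CDK6, fell from 48.6 to 30.6 FPKM (-0.65) and from 13.1 to 7.58 FPKM (-0.73). In the list of CDK inhibitors and p53 targets 7 rose and 11 of 29 fell, a balance that turned with the scaling, to 10 higher and 6 lower after median-ratio scaling and 10 and 6 after quantile normalization; 5 of the rises and 4 of the falls held under every setting. Histone genes are poorly captured in polyA libraries: 7 were tested, 4 rose and 1 (HIST1H1C, not under every setting) fell. The 2 rises that held under every setting were HIST1H2BK from 10.98 to 30.4 FPKM (1.39) and HIST1H2BD from 1.17 to 2.13 FPKM (0.52).

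Nuclear OXPHOS subunits fell in 18 of 50 (7 under every setting, 11 after median-ratio scaling) and rose in none, among the falls NDUFS7 of complex I (from 47.01 to 31.1 FPKM, -0.58) and UQCRFS1, the Rieske protein of complex III (from 146 to 104 FPKM, -0.48). TCA cycle genes fell in 7 of 23 and rose in none, beside 20.8% and 11.3% of all genes. PC, pyruvate carboxylase, and SUCLG1, of succinyl-CoA ligase, fell from 2.90 to 1.17 FPKM (-0.85) and from 50.3 to 28.99 FPKM (-0.78), and CS, citrate synthase, and IDH3A changed by -0.42 and -0.51. Fatty acid oxidation genes fell in 8 of 24 and rose in 2, with SLC25A20, the carnitine carrier, at -0.77, ETFDH, which passes electrons to ubiquinone, at -0.56 and PPARGC1A, a coactivator of mitochondrial genes, at -0.63. Cytosolic ribosomal proteins were called in 1 of 79 as deposited (RPL10, lower, a call lost under median-ratio scaling and without Dox replicate 2 or Dox plus inhibitor replicate 3), 6 higher and 0 lower after median-ratio scaling and 4 and 4 after quantile normalization. Of 73 mitochondrial ribosomal proteins 12 fell and 2 rose, beside 20.8% and 11.3% of all genes, and 6 of the falls held under every setting; MRPS14 (-0.44) and MRPL27 (-0.44) were among those that fell. Glycolytic genes fell in 9 of 22 and rose in 3. ENO2, an enolase, and PFKM, a phosphofructokinase, fell from 72.7 to 42.03 FPKM (-0.78) and from 44.05 to 29.96 FPKM (-0.54). The hypoxia list gave 5 higher and 5 lower of 19, 5 higher and 4 lower after median-ratio scaling and 5 and 2 after quantile normalization. Its collagen hydroxylase P4HA2 rose from 28.4 to 52.99 FPKM (0.88), and its mitophagy receptor BNIP3 fell from 151 to 103 FPKM (-0.55). DDIT4, an inhibitor of mTORC1, fell by 0.61 on the log2 scale and BHLHE40, a circadian repressor, rose from 45.6 to 65.5 FPKM (0.52).

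Sterol synthesis genes rose in 7 of 26 and fell in 3 with the inhibitor, which without Dox raised 1 and lowered 13. Dox alone, a comparison that uses the same Dox libraries, had lowered 19 of the 26, beside 7.31% of all tested genes. SQLE, squalene epoxidase, read 29.3, 30.7 and 29.2 FPKM with Dox and 50.8, 46.9 and 46.5 with Dox plus inhibitor, still under the vehicle values of 67.2, 64.2 and 66.05, and changed by 0.67 ± 0.05 (log2, SE; limma adjusted p = 2.9e-06). DHCR7, of the last step, rose from 26.2 to 39.1 FPKM (0.56) and TM7SF2, a sterol reductase, fell from 4.27 to 2.62 FPKM (-0.54). HMGCS1, an early enzyme, differed by 0.08 ± 0.09 (log2, SE; limma adjusted p = 0.54). Genes of fatty acid and triglyceride synthesis rose in 9 of 22 and fell in 2. SCD, ACLY and ACACA, which make and desaturate fatty acids, rose by 0.81, 0.63 and 0.43, and ACSL1, which activates fatty acids, fell from 30.5 to 18.1 FPKM (-0.72). Of the amino acid response genes under ATF4, 10 of 31 fell and 5 rose, beside 20.8% and 11.3% of all genes, with 6 higher and 6 lower after median-ratio scaling and 6 and 9 after quantile normalization. DDIT3, the stress factor CHOP, fell from 67.3 to 25.5 FPKM (-1.36) against 34.6 in vehicle, and CEBPB, its dimer partner, fell from 17.7 to 6.45 FPKM (-1.32). ALDH1L2, a mitochondrial folate enzyme, rose from 3.19 to 4.70 FPKM (0.44). The endoplasmic reticulum stress list gave 5 of 25 higher and 1 (CREB3L2, not under every setting) lower. HERPUD1 and HYOU1, which act in protein quality control there, rose by 0.59 and 0.33. Heat shock genes fell in 5 of 17 (3 after median-ratio scaling) and rose in none, beside 20.8% and 11.3% of all genes. HSPB8, a small heat shock protein, fell from 46.9 to 27.3 FPKM (-0.76). HSPA1B, an inducible HSP70 whose sequence is nearly that of HSPA1A, fell from 67.1 to 45.7 FPKM (-0.54). In prostaglandin synthesis 5 of 11 fell (3 after median-ratio scaling), among them PTGES, the inducible prostaglandin E synthase (from 7.78 to 3.66 FPKM, -0.92), and 1 rose, the prostaglandin transporter SLCO2A1 (from 9.01 to 17.3 FPKM, 0.87). NRF2 targets gave 3 higher and 6 of 24 lower, near the 11.3% and 20.8% of all genes, and 8 higher and 6 lower after median-ratio scaling and 6 and 5 after quantile normalization. OSGIN1, of that list, fell from 5.86 to 2.82 FPKM (-0.85).

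The same inhibitor in uninduced cells called 4802 genes (38.0%), from libraries that are not shared with the comparison above. Over the 12649 genes the changes with and without Dox had a Pearson r of 0.72 and a Spearman rho of 0.74, a description across genes, which are not independent and share the annotation and FPKM scaling. Of the 4063 genes called with Dox, 3837 (94.4%) had the same sign without it. Rises were called in both for 1012 genes and falls for 1909, and 41 genes were called in opposite directions. The groups without Dox did not overlap for 43.7% of genes. Large rises such as CCL20 (3.81 with Dox, 4.36 without), PDGFB (3.15 and 3.10), TNF (2.11 and 2.39) and EPPK1 (2.37 and 2.35) were present in both, and the differences between the 2 effects were not called (limma interaction adjusted p = 0.27, 0.91, 0.44 and 0.97).

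The difference between the 2 inhibitor effects, tested as an interaction, was called for 357 genes (2.82%), 242 more negative (1.91%) and 115 more positive (0.909%) with Dox, and 158 of them held under every setting. Of the 357, 127 were called the same way in both, 107 only with Dox, 82 only without Dox and 41 in opposite directions. The tumor marker list held 16 of the negative genes among its 21 members, the hydrolases 14 of 51, the lysosomal membrane list 7 of 49 and the V-ATPase 4 of 19. Under every setting 14, 10, 5 and 1 of these held. GPNMB, NMRK2 and TRIM63 fell with Dox, and without it the inhibitor and vehicle groups differed by 0.12, -0.06 and -0.07. NMRK2, TRIM63 and SPINK1 (0.13, 0.19 and 0 FPKM) were at or near 0 in vehicle, which leaves no room for a fall. These genes met the filter only because of the Dox libraries, so a negative interaction was favored in advance. RRAGD was also low without Dox, at 1.02 FPKM in vehicle and 0.587 with the inhibitor alone (-0.35), where the log2(FPKM + 1) scale understates changes. FNIP2 changed by -0.90 with Dox and 0.53 without, an interaction of -1.42 ± 0.13 (limma adjusted p = 2.8e-04). The corresponding values were -0.87 and 0.28 for SQSTM1, and -1.26 and 0.08 for FTH1. FTL, the other ferritin chain, changed by -1.51 with Dox and -0.97 without. Its interaction of -0.54 ± 0.13 was not called (limma adjusted p = 0.060). HMOX1 read 40.6, 37.99 and 36.6 FPKM in vehicle and 55.2, 49.6 and 48.3 with the inhibitor alone, a difference of 0.40, and its interaction was -1.23 ± 0.09 (limma adjusted p = 5e-05). TNFRSF14, a receptor of the TNF family, and PTGES had interactions of -1.47 ± 0.14 and -1.59 ± 0.17. ATP6V1A changed by -1.29 and -1.17, with an interaction of -0.13 ± 0.10 (limma adjusted p = 0.65).

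Positive interactions included secreted and matrix genes. THBS1, thrombospondin-1, read 227, 216 and 214 FPKM with Dox and 467, 478 and 466 with Dox plus inhibitor, a change of 1.10, and the difference without Dox was 0.23, an interaction of 0.87 ± 0.06 (limma adjusted p = 3.3e-05). CTGF and SGK1 (a serum and glucocorticoid-induced kinase) rose more with Dox, by interactions of 0.80 ± 0.10 and 0.76 ± 0.07. EDN2, endothelin-2, read 12.04, 17.96 and 14.7 with Dox and 28.2, 29.9 and 25.9 with Dox plus inhibitor, a change of 0.88, where the difference without Dox was -0.28. SDPR, a caveolar protein, and CDH6, a cadherin of the proximal tubule, rose by 0.80 and 0.83 with Dox, and the differences without it were -0.30 and -0.12. SLC6A6, the taurine transporter, and SHISA2 fell less with Dox (-0.24 and -0.40) than without (-1.04 and -1.27).

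**Figure D4:**
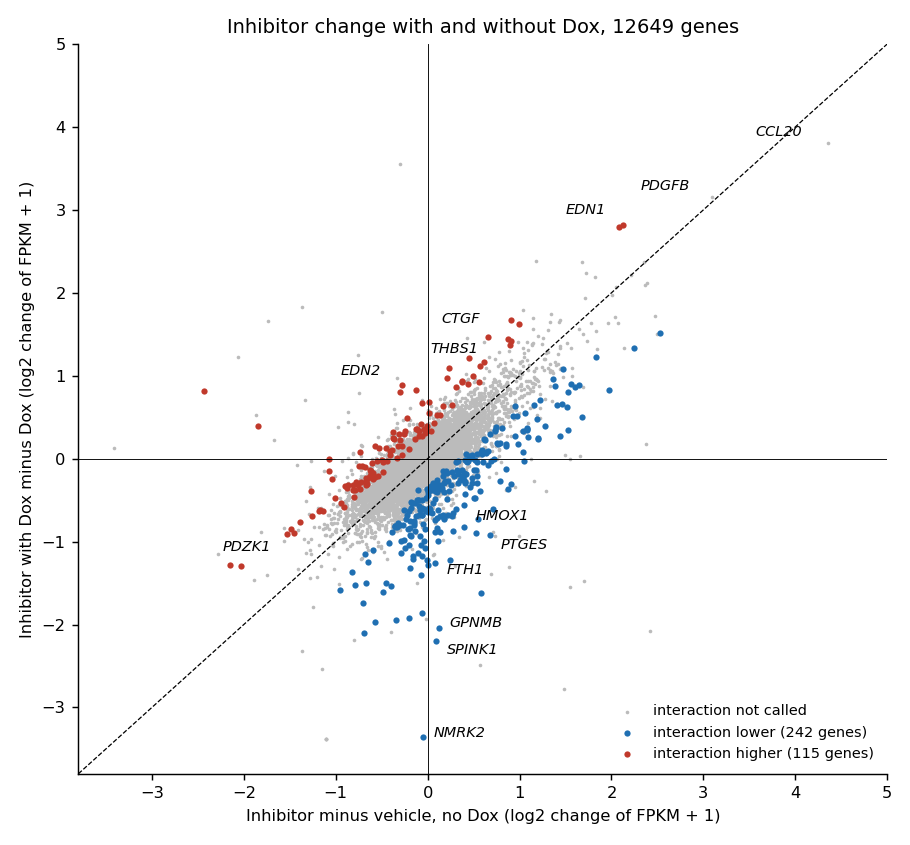
Log2 change of FPKM + 1 made by the inhibitor without Dox (horizontal axis) and with Dox (vertical axis) for 12649 genes, one point a gene, with equal change on the dashed line and genes whose interaction was called in blue (242 lower) or red (115 higher). NMRK2 and GPNMB lie far below the line, at -3.36 and -2.05 with Dox, and CCL20 and PDGFB lie near it at the top right.

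The 300-base promoter windows of RefSeq (250 bases before to 50 after the start) were matched to 9426 of the 12649 tested genes by symbol, with 13661 promoters. A CLEAR-type E-box (TCACGTG on either strand, which contains the E-box CACGTG) was present in 5.59% of all these promoters, in 9.09% of those of genes that fell with the inhibitor and in 2.32% of those of genes that rose. The share was 14.5% for genes with a negative interaction, 21.1% for the 3 lysosomal lists and 30.0% for the 20 promoters of the tumor marker list. The M-box was present in 1.79% of all tested promoters, 3.11% of those that fell, 1.63% of those that rose and 8.43% of those with a negative interaction. The AP-1 site was present in 5.09% of all, 5.47% of those that fell, 6.20% of those that rose, 10.8% of those with a negative interaction, 5.69% of the lysosomal lists and 3 of the 20 promoters of the tumor marker list. A TCF/LEF site (CTTTGAA) was present in 2.76% of all, 2.77% of those that fell, 2.32% of those that rose and 2.41% of those with a negative interaction. In the whole table of 35116 promoters the shares were 3.71% for the CLEAR-type E-box, 2.92% for the M-box, 7.71% for AP-1 and 4.43% for TCF/LEF. These are descriptions of letters in a window, without a test.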

How the data were processed

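PolyA RNA from 12 cultures (3 per group, described by the submitters as independent biological replicates) was sequenced from stranded mRNA libraries, per the labels' protocols. Salmon 1.9.0, Trim Galore 0.6.7 and 2 build names, GRCh38.p13 and hg38, appear in the submitters' processing notes. The authors deposited one table of FPKM values with no counts, so depth is unknown and no count test was run. FPKM is relative to each library's total, which is why another scaling can shift all genes.

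Values were analysed as log2(FPKM + 1), which understates changes of low genes. Genes with FPKM of at least 1 in at least 3 libraries were tested with limma 3.58.1 (R 4.3.3): 4 group means over all 12 libraries, 8 residual degrees of freedom, intensity trend, two-sided, with Benjamini-Hochberg adjustment over all tested genes and a threshold of 0.05. SE is the SE of the log2 difference from this fit. The fit was also run on simulated data with independent noise in each gene. That setting lacks the scale shift and the replicate 1 pattern of these libraries, so it cannot vouch for the calls here. The 21 alternatives covered scaling, pseudocount, filter, libraries used, replicate block, a length and GC trend, and each library left out. A gene not tested under an alternative was not counted as lost there. Genes were named by a rule: the 15 largest rises and falls among genes called under every alternative with non-overlapping groups and a mean of at least 5 FPKM, up to 4 called members per list, the 8 largest interactions each way under the same conditions, and a set of fixed genes. The members and lists were chosen with earlier results of these data known. Lists share some members. Single members that moved against their list, and RGS5, were named after their values were seen. A few genes are not reported here. Coordinates are from GENCODE 29.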

Additional observations from a re-analysis of the deposited data

Results flagged for a closer look

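The inhibitor changed 52 of the 178 genes named here by different amounts with and without Dox, by limma's interaction test at an adjusted p under 0.05, against 2.82% of all tested genes, where the naming rule itself selected genes for large interactions. Values below are the change with Dox minus the change without it, on the log2(FPKM + 1) scale, each from 3 libraries in each of 4 groups. The most negative differences were those of NMRK2 (-3.30), SPINK1 (-2.29), GPNMB (-2.17), TRIM63 (-1.80), UAP1L1 (-1.72), RRAGD (-1.60), PTGES (-1.59), TNFRSF14 (-1.47) and FNIP2 (-1.42). Of these, NMRK2, SPINK1 and TRIM63 were at or near 0 in vehicle, which leaves no room for a fall without Dox. They met the filter only because of the Dox libraries, which favored a negative difference in advance. The next group comprised PTGDS (-1.41), RENBP (-1.40), FTH1 (-1.35), HMOX1 (-1.23), BHLHE41 (-1.17), SQSTM1 (-1.15), BEX2 (-1.12), ACP5 (-1.10) and ZNF114 (-1.04). Intermediate negative values were found for ANKRD1 (-1.03), CDKN1A (-0.92), ACSL1 (-0.90), PLEKHM1 (-0.90), ANGPTL2 (-0.83), MCOLN1 (-0.83), UPP1 (-0.73), PLAT (-0.73) and RRAGC (-0.70). The smallest negative values were those of NEU1 (-0.63), ENO2 (-0.63), OSGIN1 (-0.63), FLCN (-0.59), DDIT3 (-0.54), NLRC5 (-0.51), P4HA2 (-0.51), TFE3 (-0.47) and BHLHE40 (-0.46). Positive differences were those of EDN2 (1.16), SDPR (1.10), CDH6 (0.95), SHISA2 (0.88), THBS1 (0.87), HMGCS1 (0.82), CTGF (0.80), SLC6A6 (0.80) and SGK1 (0.76). Smaller positive values were those of PDZK1 (0.75), SQLE (0.74), ACTA2 (0.71), EDN1 (0.69), CXCL8 (0.55), KIF20A (0.55) and DAB2 (0.50). For 15 of these genes the difference was no longer called under at least 1 alternative: ACTA2 (9), ANGPTL2 (13), BEX2 (6), BHLHE40 (11), CXCL8 (10), DAB2 (7), KIF20A (2), NEU1 (5), NLRC5 (9), OSGIN1 (15), P4HA2 (4), PTGDS (4), SPINK1 (1), SQLE (1) and TFE3 (7), with the number of such alternatives in brackets. TFE3 transcript was also lower with the inhibitor in both settings, and its part in the negative differences was not tested.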

How the results depend on the processing

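No called change of a named gene reversed its sign under any alternative run. In the comparison of Dox plus inhibitor with Dox, the genes called ranged from 3057 to 4478 when 1 library was left out, those higher from 1116 to 1554 and those lower from 1932 to 2924. After median-ratio scaling 1653 genes were lower. After removal of a length and GC trend 2264 were higher, and 2562 with the replicate block as well. Leaving out replicate 1 of every group, an alternative chosen after seeing the data, gave 4562, and 489 for the interaction. For the interaction, removal of the length and GC trend gave 811 genes and leaving out 1 library gave 186 to 420, the lowest being that with Dox replicate 2 omitted; omitting replicate 2 of vehicle, of inhibitor or of Dox plus inhibitor gave 198, 204 and 237, and omitting replicate 3 of Dox or of Dox plus inhibitor gave 207 and 214. For Dox without inhibitor the range was 1427 (without Dox replicate 3) to 2665, and 1492 genes were called without vehicle replicate 2. Over the 11996 genes with a known length and GC content, log2 changes followed GC content to unlike degrees. The rank correlation was 0.09 in the main comparison and 0.23 for the inhibitor without Dox. It was -0.39 for Dox without inhibitor and -0.22 for the interaction. The causes of these shifts and trends were not tested.

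The replicate number was not a proven pairing in the main comparison: across genes, deviations of same-numbered Dox and Dox plus inhibitor libraries (numbers 1, 2 and 3) correlated by 0.13, -0.09 and 0.08. In groups other than Dox the same numbers went together more, at 0.55, 0.13 and 0.34 for inhibitor and Dox plus inhibitor, 0.69, 0.10 and 0.51 for vehicle and inhibitor, and 0.48, 0.06 and 0.32 for vehicle and Dox plus inhibitor, though replicate 2 did not always correlate best with its own number. With the replicate block, 5239 genes were called in the main comparison, 666 in the interaction (1103 if the GC and length trend was removed too) and 3741 for Dox without inhibitor (4050 likewise).

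Of 178 named genes, 8 lost the call with Dox under at least 1 alternative: SHISA2 (-0.28 without replicate 1 of all groups, limma adjusted p = 0.061), SLC6A6 (-0.16 after median-ratio scaling, limma adjusted p = 0.058), RPL10 (highest limma adjusted p = 0.090), B2M (0.20), BHLHE41 (0.14), SYNPO (0.15), HIST1H1C (0.15) and CREB3L2 (0.33), while MITF, CDK19 and HMGCS1 gained one under 1 to 4 alternatives. With a pseudocount of 0.1 the changes of ACTA2, TRIM63, TFEB, MLPH, E2F2, TRAF1 and HIST1H2BD grew to 4.46, -4.24, -1.05, -1.30, -0.98, 1.78 and 0.81. Of 1936 list counts recomputed, 203 moved by over 1.5 times. With FPKM alone, changes of genes near 0 cannot be weighed by depth.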
